A study of Mus musculus with 22 samples.

Results

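Tumours of mice given avelumab together with 2 µg NHS-muIL12 were compared with tumours of mice given avelumab alone, gene by gene, on a NanoString panel. The members were chosen by their sample titles, and they are 7 of the 22 libraries of the series, 4 with both agents and 3 with avelumab alone, each from 1 mouse. NHS-muIL12 is a fusion of mouse interleukin-12 to an antibody that binds the DNA exposed in necrotic tissue. Avelumab is an antibody against PD-L1, the ligand through which tumour and myeloid cells restrain T cells. The comparison asks what differed in tumours when the lower dose of the interleukin-12 fusion was given along with PD-L1 blockade.

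All mice were BALB/c and carried EMT-6, a mouse mammary carcinoma line, in the mammary fat pad, and they entered treatment at a tumour volume near 100 mm3, on day 0. The avelumab group received 200 µg avelumab into a vein on days 0, 3 and 6, and its libraries carry the replicate numbers 2 to 4. The combination group received the same avelumab schedule and a single dose of 2 µg NHS-muIL12 under the skin on day 0, with replicates 1 to 4. Set beside them were 4 mice with isotype control and 4 mice with 2 µg NHS-muIL12 without avelumab. The study also held 3 mice with 10 µg NHS-muIL12 without avelumab and 4 mice with avelumab plus 10 µg NHS-muIL12. The spread of each gene was estimated over all 6 groups of the study. Tumours were taken on day 6, the day of the last avelumab dose. Each library is total RNA of a whole tumour, so tumour cells, stroma and immune cells are measured together, and the labels give no sort or purity. The series text speaks of 4 mice in each group, and an avelumab replicate 1 was not analysed here.

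Interleukin-12 is made by dendritic cells and macrophages and acts on NK cells and T cells through a receptor built from IL12RB1 and IL12RB2, which signals through TYK2, JAK2 and STAT4. The best known product of that signal is interferon-gamma. Interferon-gamma acts on nearly all cells of a tumour, and its known targets include the class II transactivator CIITA, MHC molecules, guanylate binding proteins and the chemokines CXCL9, CXCL10 and CXCL11, which draw CXCR3-bearing lymphocytes. PD-L1, encoded by Cd274, is itself such a target.

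The deposited values are background-subtracted, scaled probe signals. The summed signal of a library was 300174 to 344673 with avelumab and 337127 to 400275 in the combination. Over the 20 housekeeping genes the mean log2 signal was 8.86 to 8.91 and 8.84 to 8.88, and 52 to 101 and 67 to 119 of the 770 genes were at 0. Pearson's r between libraries, across genes, was 0.910 to 0.966 within the avelumab group, 0.948 to 0.976 within the combination and 0.870 to 0.967 between them. The median signal of a library was 62.7 to 75.2 with avelumab and 77.5 to 104 in the combination, without overlap. Of the defining markers, the macrophage genes Csf1r, Cd68, Msr1 and Cd14 were above 100 in all 7 libraries. So were the endothelial genes Cdh5 and Pecam1 and the epithelial genes Erbb2 and Egfr. The epithelial genes Epcam and Cdh1 were lower, at 23.4 to 67.9 and 12.8 to 80.4. Cd79a of B cells was at 0 in 5 of 7 and Klrb1c of NK cells in 5 of 7. Ms4a1 of B cells and Klrd1 and Ncr1 of NK cells were above 0 in all 7.

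In the deposited scale, more genes were higher than lower with 2 µg NHS-muIL12 added to avelumab. Of 750 tested genes 81 passed an adjusted p under 0.05 in limma, which is 10.8%, and 72 of them were higher in the combination (9.60%) and 9 lower (1.20%). At an unadjusted p under 0.05 there were 190 genes, 153 higher and 37 lower. The rises with the largest log2 difference were Slamf7, the complement gene C6, class II MHC genes, Cxcl9, Ticam2, the Fc receptor gene Fcgr4, Ccl8 and Cd48. Cxcl12, Gbp5 and Cfb came next. The falls held Tpsab1 of mast cells, Myc, Fos and Jun. All 4 combination mice lay above all 3 avelumab mice for 126 genes (16.8%) and below them for 53 (7.07%), and 68 of the 72 rises and all 9 falls were among these. The 4 rises that overlapped were Pik3cg, Ptprc, Ticam2 and Tlr8. For a typical gene the 95% interval of the log2 difference reached 0.81 to either side, so changes smaller than this were mostly not detectable with 3 and 4 mice. Of the 72 rises 56 had a mean signal of 100 or more over the 7 mice and 0 had one under 20, against 221 genes under 20 among the 750.

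The count and its balance depended on the mice and on the scaling. Without avelumab replicate 2, without avelumab replicate 3, without combination replicate 1 or without combination replicate 4, 0 genes passed, with 141, 141, 151 and 154 genes at an unadjusted p under 0.05 and smallest adjusted p values in limma of 0.0811, 0.0619, 0.0633 and 0.0610. Without combination replicate 3 the count was 45. No gene of the 81 kept its call in all 7 such fits. Each of the 72 rises and 9 falls had the same direction in every alternative setting that tested it. These were 16 settings for all but Aire and Elk1, which the filter on mean signal removed. That outcome was largely fixed by the choice of genes. Groups that do not overlap, as in 68 of the 72 rises and all 9 falls, keep their direction when 1 mouse is left out. Settings that changed only other groups or the estimate of spread could not turn a direction either. The median log2 difference of all tested genes was 0.10 in the deposited values. Centring each library on its median moved it to -0.33 and gave 24 rises and 35 falls, and quantile normalization moved it to -0.13 and gave 39 rises and 33 falls. The housekeeping genes had a median log2 difference of -0.12 in the deposited values.

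**Figure D1:**
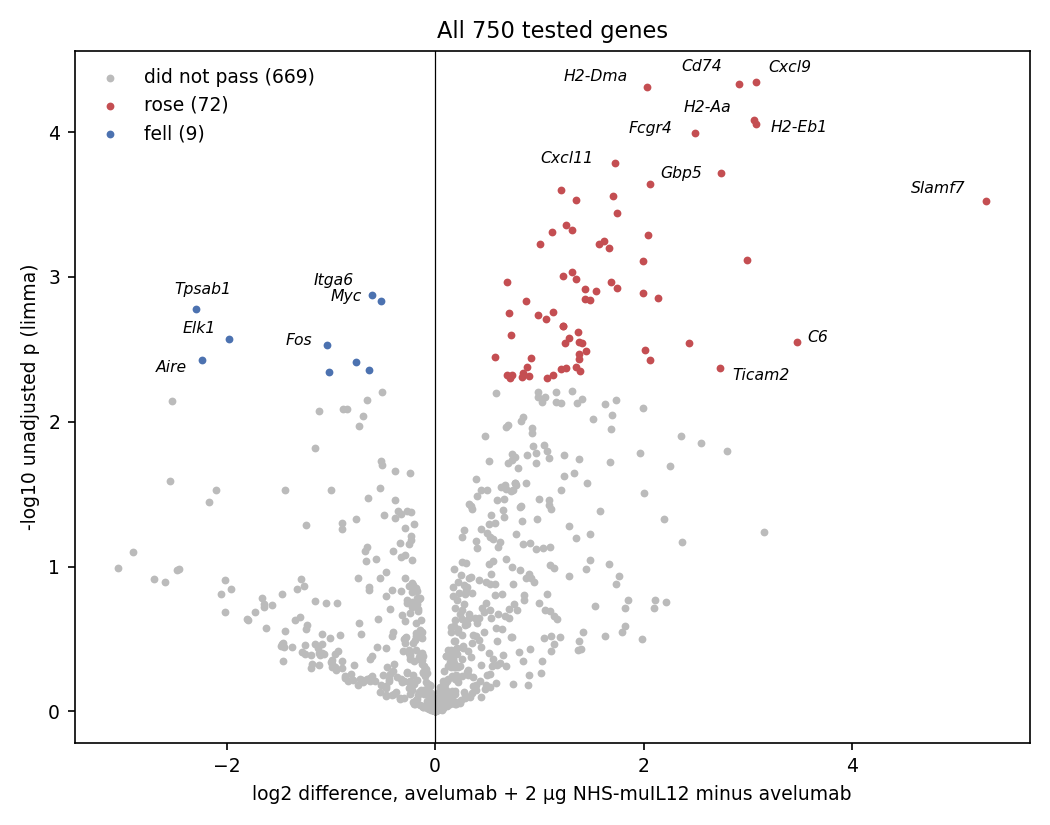
Each point is 1 of 750 tested genes, placed by its log2 difference in signal (x axis, combination minus avelumab alone) and its unadjusted p in limma (y axis, -log10). The 72 genes that rose are red, the 9 that fell are blue, and the named genes include Slamf7 at 5.28 and Tpsab1 at -2.30.

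Class II MHC genes formed the group with the highest median log2 difference of the 21 lists, 2.77 against 0.10 over all tested genes. Of 10 measured members 6 rose and 0 fell. The median was 2.34 after median centring and 2.53 after quantile normalization, with 6 and 7 members rising. Of all 750 tested genes 9.60% rose, and 24 and 39 genes rose under these scalings. Cd74, the invariant chain that guides class II molecules to the endosome, had signals of 603, 548 and 1084 in avelumab replicates 2, 3 and 4. In combination replicates 1 to 4 it was at 8311, 3019, 4317 and 7642. Every combination mouse was well above the highest avelumab mouse, and replicates 1 and 4 were the highest. The log2 difference was 2.92 ± 0.54 (SE), or 7.54-fold, with an adjusted p of 0.0121 in limma.

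H2-Aa, the A alpha chain, was at 370, 292 and 622 with avelumab and at 5347, 1545, 3263 and 4935 in the combination, a log2 difference of 3.06 ± 0.60 (SE). H2-Eb1, the E beta chain, was at 109, 120 and 159 and at 1832, 441, 961 and 1764 (3.08 ± 0.60). Both genes separated the groups completely, and in both replicate 2 was the lowest combination mouse. H2-Ab1, the A beta chain, rose by 2.74 ± 0.58 (SE) on the log2 scale, and H2-Ea-ps, the E alpha chain gene, by 2.99 ± 0.73 (SE). H2-Dma, a chain of the chaperone that loads peptide onto class II molecules, was at 81.9, 55.1 and 107 with avelumab and at 458, 241, 227 and 437 in the combination. Its log2 difference was 2.03 ± 0.38 (SE), with an adjusted p of 0.0121 in limma. No source used here gives the probe sequences, so cross-reading between similar H2 genes was not tested.

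Ciita, the transactivator on which class II transcription depends, was at 6.90, 9.57 and 0 with avelumab and at 43.1, 11.2, 22.2 and 67.0 in the combination. The groups did not overlap, but the signal was low and the log2 difference of 2.80 ± 1.05 (SE) had an adjusted p of 0.0997 in limma. H2-DMb2, the partner chain of H2-Dma, overlapped between the groups (1.10 ± 0.63). H2-Ob, a chain of a B cell inhibitor of peptide loading, differed by 0.08 ± 0.89 (SE) on the log2 scale, and its sign turned under both other scalings. In a bulk tumour, more cells of a type cannot be told apart from more RNA of the gene in each cell. Summed over their lists, macrophage genes were at 6571 to 9971 with avelumab and 9963 to 12596 in the combination, dendritic cell genes at 1610 to 2503 and 2429 to 3791, and B cell genes at 190 to 261 and 302 to 1025. Their part in the class II result was not tested.

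The promoters of 4 genes that rose strongly are shown because class II genes share known promoter elements, the X box and the Y box, and interferon targets share a gamma-activated site (GAS) and an interferon-stimulated response element. Capitals mark every match, on either strand, to TAGCAAC (the core of the X box), GATTGG (the Y box), TTCNNNGAA (the GAS) or GAAANNGAA (response-element-like). Each sequence is the 300 bases from 250 before to 50 after a RefSeq gene start in the GRCm38.p6 build, written 5′ to 3′ on the gene's strand.
H2-Eb1, chr17:34305617-34305916, + strand: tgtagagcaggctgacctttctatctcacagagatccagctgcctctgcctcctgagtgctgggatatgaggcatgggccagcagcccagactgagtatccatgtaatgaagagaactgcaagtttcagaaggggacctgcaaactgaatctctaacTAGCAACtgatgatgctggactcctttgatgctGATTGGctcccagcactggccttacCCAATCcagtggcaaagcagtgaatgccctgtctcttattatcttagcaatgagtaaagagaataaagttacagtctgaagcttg
H2-Aa, chr17:34287774-34288073, - strand: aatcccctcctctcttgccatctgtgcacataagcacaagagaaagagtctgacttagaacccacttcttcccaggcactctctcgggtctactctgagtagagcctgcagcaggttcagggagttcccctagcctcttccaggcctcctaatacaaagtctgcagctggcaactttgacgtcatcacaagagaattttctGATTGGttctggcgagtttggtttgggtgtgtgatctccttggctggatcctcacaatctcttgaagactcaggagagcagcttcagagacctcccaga
Cxcl9, chr5:92328030-92328329, - strand: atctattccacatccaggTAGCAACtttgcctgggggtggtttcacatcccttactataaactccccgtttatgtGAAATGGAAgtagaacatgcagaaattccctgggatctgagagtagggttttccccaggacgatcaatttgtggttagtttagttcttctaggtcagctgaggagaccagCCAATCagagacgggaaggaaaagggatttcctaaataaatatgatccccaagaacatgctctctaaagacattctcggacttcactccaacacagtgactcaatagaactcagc
Gbp5, chr3:142496684-142496983, + strand: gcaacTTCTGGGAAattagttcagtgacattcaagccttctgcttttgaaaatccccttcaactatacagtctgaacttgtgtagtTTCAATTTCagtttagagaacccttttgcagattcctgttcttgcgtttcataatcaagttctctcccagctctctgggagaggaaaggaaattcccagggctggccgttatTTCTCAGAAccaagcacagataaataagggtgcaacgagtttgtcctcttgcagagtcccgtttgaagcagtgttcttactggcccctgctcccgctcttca

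H2-Eb1 held the X box core and 2 Y boxes, H2-Aa 1 Y box, Gbp5 2 GAS elements and 1 response-element-like match, and Cxcl9 an X box core, a Y box and 1 response-element-like match. Of all 32851 RefSeq mouse promoters of this length, 3.66% held the X box core, 16.1% the Y box, 8.30% the GAS letters and 8.56% the response-element-like letters. Of 62 promoters of 52 genes that rose, the shares were 3.23%, 17.7%, 14.5% and 25.8%, and of 679 promoters of 551 tested genes 2.36%, 15.2%, 11.9% and 13.3%. A match describes letters, not a bound site. Only exact letters were marked, so a sequence without a match can still hold a variant of the element.

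Of 15 measured interferon-gamma response genes 8 rose and 0 fell, beside the 9.60% of all tested genes that rose. The median log2 difference of the 15 genes was 1.25. After median centring 6 rose and 0 fell, with a median of 0.82, and after quantile normalization 8 rose and 1 fell, with a median of 0.81. Cxcl9 was at 67.1, 109 and 73.8 with avelumab and at 1365, 309, 591 and 936 in combination replicates 1 to 4. The lowest combination mouse was above the highest avelumab mouse, and the combination mice themselves spread widely. The log2 difference was 3.08 ± 0.57 (SE), or 8.45-fold, with an adjusted p of 0.0121 in limma. The other ligands of CXCR3 rose less, Cxcl11 by 1.72 ± 0.36 (SE) and Cxcl10 by 1.37 ± 0.39 (SE) on the log2 scale. Cxcl10 was at 200, 212 and 239 against 659, 409, 517 and 722, again with no overlap.

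Gbp5, an interferon-induced GTPase that promotes inflammasome assembly, was at 64.1, 139 and 128 with avelumab and at 507, 338, 324 and 670 in the combination (log2 difference 2.06 ± 0.44, SE). Combination replicates 4 and 1 were the highest, and the groups were apart. Gbp2b, Irf8 and Icam1, another such GTPase, a myeloid transcription factor and an adhesion molecule, rose by 1.43, 1.25 and 1.25 on the log2 scale. Irf1, a transcription factor induced by interferons, was higher in all 4 combination mice but did not pass (0.70 ± 0.27 SE, adjusted p = 0.108 in limma). Socs1, a feedback inhibitor of the pathway, had a log2 difference of 1.21 ± 0.40 (SE) and an adjusted p of 0.0580. The receptor chain and its kinases did not pass, with Ifngr1 at 0.44 ± 0.22, Jak1 at 0.04 ± 0.13 and Jak2 at -0.23 ± 0.10 (log2 difference, SE), and Jak1 turned negative under both other scalings.

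**Figure D2:**
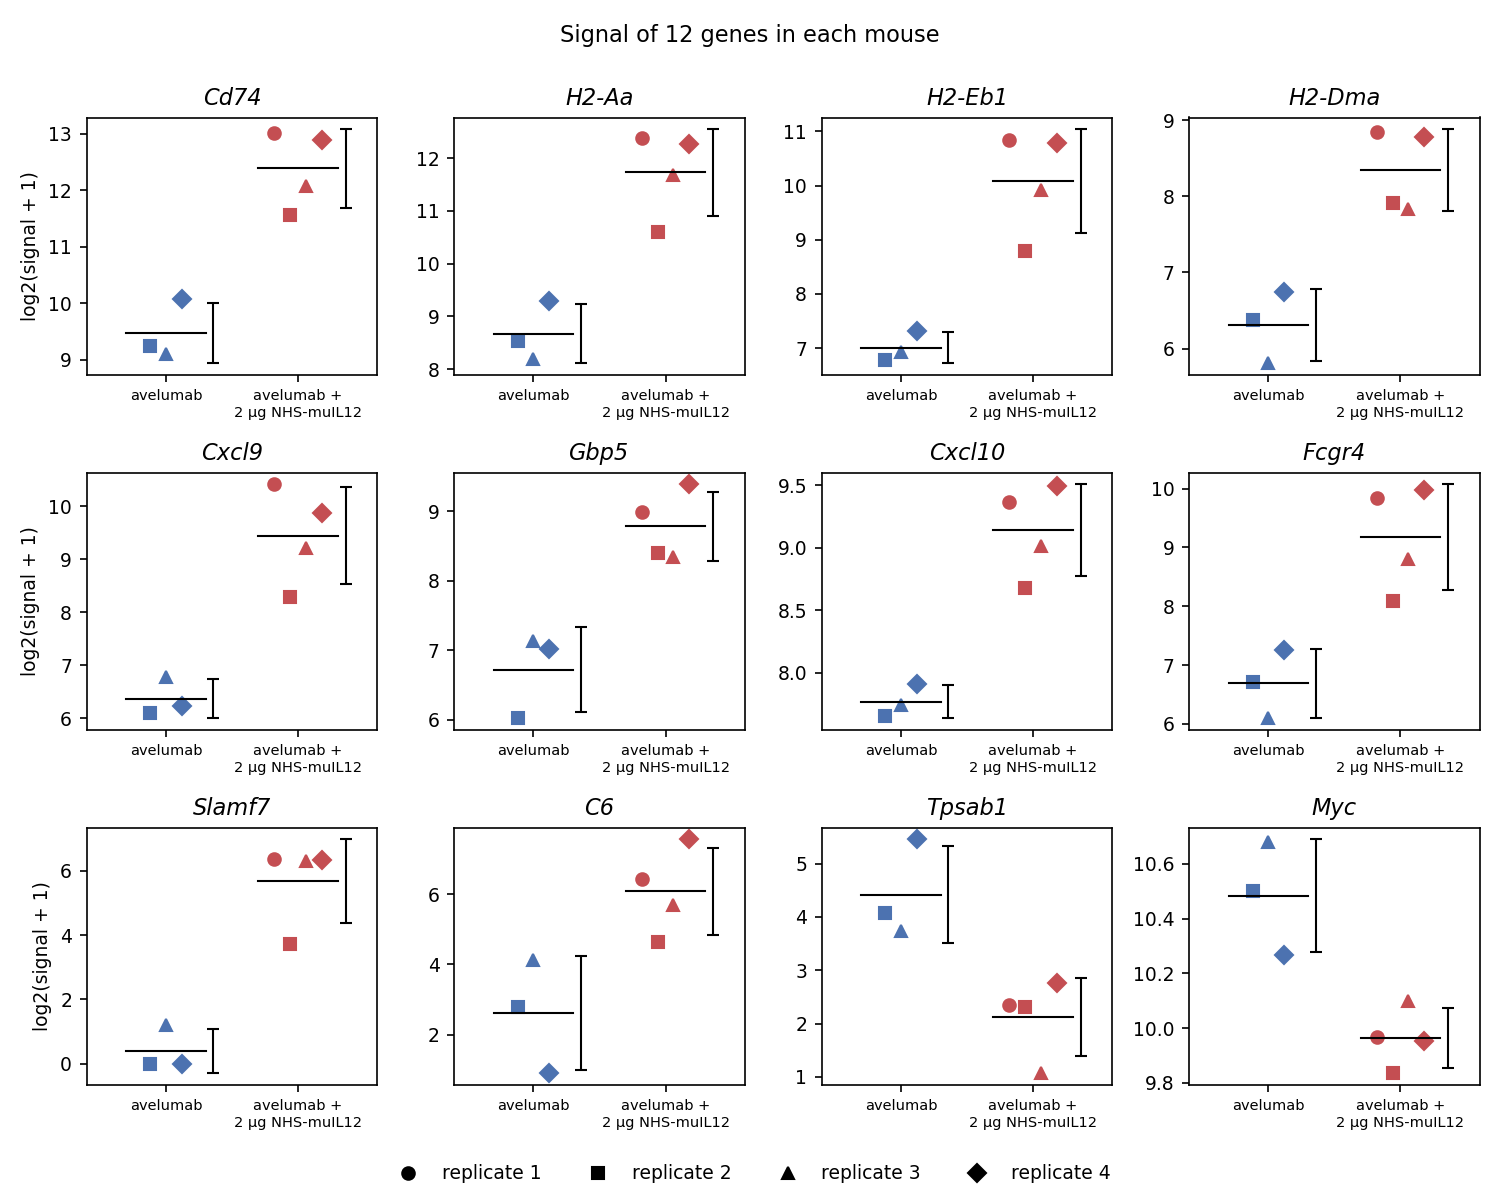
Each panel shows 1 gene as log2(signal + 1) (y axis) in the 3 avelumab mice and the 4 combination mice, with the marker giving the replicate number, the line the group mean and the bar 1 SD. The first 10 panels are rises and Tpsab1 and Myc are falls, and in each panel the groups are apart, with Slamf7 at 0 in 2 of 3 avelumab mice.

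None of the 17 measured genes of the interleukin-12 axis itself passed in limma, and 1 was under an unadjusted p of 0.05, and their median log2 difference was 0.25 (-0.17 after median centring, 0.11 after quantile normalization). Il12rb1, a receptor chain, was at 20.7, 44.1 and 30.8 with avelumab and at 88.7, 62.0, 43.3 and 96.8 in the combination. Its groups overlapped by 1 mouse, and the log2 difference of 1.16 ± 0.38 (SE) had an adjusted p of 0.0580 in limma. Cxcr3, the receptor of the CXCL9 family, overlapped between the groups (1.14 ± 0.66). Eomes, a transcription factor of cytotoxic lymphocytes, was at 25.7, 31.6 and 29.9 and at 9.13, 8.12, 25.7 and 16.9 (-1.05 ± 0.74). Tyk2, Il18 and Il18rap differed by 0.25, 0.27 and -0.11 on the log2 scale, and the first pair turned negative under both other scalings. Of the list, 11 of 17 members had a mean signal under 20. Ifng, which the rule for named genes did not pick and which is given for its place in the pathway, had a mean of 4.31 with avelumab and 3.22 in the combination. The panel thus read the cytokine at a level near its background, and its change was not detectable here.

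Of 19 measured genes of class I presentation 4 rose and 0 fell, with log2 differences from -1.45 to 1.36 over the list. The median log2 difference of 0.35 became -0.07 after median centring and 0.15 after quantile normalization, where 0 members passed. H2-D1, a class I heavy chain, was at 5686, 7109 and 6855 with avelumab and at 9577, 8756, 8706 and 12212 in the combination, which is 1.49-fold. Psmb9 and Psmb10, subunits of the immunoproteasome, and Tap1, a peptide transporter, rose by 0.72, 0.69 and 0.72 on the log2 scale. Of 30 type I interferon response genes 3 rose, Ifi44l (1.62 ± 0.38, SE), the nucleic acid sensor Zbp1 (1.23 ± 0.34) and the RNA sensor Ifih1 (0.69 ± 0.21). This is close to the 9.60% of all tested genes that rose. Under median centring 1 of the 30 rose, and under quantile normalization 2 rose and 1 fell. That list's median of 0.26 turned to -0.16 and -0.05 under the same scalings.

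Among Fc receptors, 3 of 6 rose (1 under median centring and 2 under quantile normalization). Fcgr4, an activating IgG receptor of macrophages and monocytes, was at 104, 67.5 and 152 with avelumab and at 915, 271, 447 and 1008 in the combination. The groups were apart, and the log2 difference was 2.49 ± 0.50 (SE), with an adjusted p of 0.0127 in limma. Fcgr1 and Fcgr3, further activating receptors, rose by 1.26 and 1.07. Of 21 macrophage genes 2 rose, a share close to the 9.60% of all tested genes that rose. They were Cybb, the catalytic chain of the phagocyte oxidase (1.57 ± 0.37, SE), and Emr1, which encodes F4/80 (1.22 ± 0.31). The defining macrophage markers Cd68, Csf1r and Msr1 had log2 differences of 0.64, 0.88 and 0.68 and adjusted p values of 0.141, 0.102 and 0.141 in limma, and Cd14 one of -0.27. Under median centring 0 macrophage genes rose and 1 fell, and under quantile normalization 2 rose and 1 fell. The summed macrophage level given above had a median of 7092 with avelumab and 10732 in the combination, with ranges that overlapped slightly. Its relation to the Fc receptors and its part in their rise were not tested.

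Of 28 complement genes 7 rose and 0 fell (2 under median centring and 5 under quantile normalization). Of all 750 tested genes 9.60% rose, and 24 and 39 genes rose under these scalings. The complement genes that rose included C1qa, C1qb, C1ra and C1s1 of the first component. They also included C4b of the classical pathway and Cfb, factor B of the alternative pathway. Cfb was at 79.9, 46.8 and 94.4 with avelumab and at 347, 178, 237 and 513 in the combination (log2 difference 2.04 ± 0.48, SE). C6, which takes part in the membrane attack complex, was at 5.92, 16.5 and 0.870 and at 85.8, 23.6, 50.3 and 188. The lowest combination mouse was close to the highest avelumab mouse for C6, and its log2 difference was 3.47 ± 1.00 (SE). C8a and C8g, further genes of that complex, were at 0 in all 7 mice.

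Of 10 monocyte attractants 2 rose (0 under median centring and 1 under quantile normalization). Ccl8, a monocyte attractant, was at 566, 150 and 592 with avelumab and at 2584, 775, 2076 and 3832 in the combination (log2 difference 2.43 ± 0.70, SE). Combination replicate 2 stood only a little above the highest avelumab mouse. Cx3cl1, the membrane-bound ligand fractalkine, rose by 0.88 ± 0.27 (SE). Of 20 lymphocyte chemokines and receptors 2 rose, a share close to the 9.60% of all tested genes that rose. Under each other scaling 0 rose and 1 fell. Cxcl12, the ligand of CXCR4, was at 114, 57.9 and 115 and at 301, 176, 502 and 818 (2.06 ± 0.61). Ccl3, an inflammatory chemokine, was at 137, 458 and 115 with avelumab and at 77.1 to 93.4 in the combination, and it did not pass (-1.15 ± 0.43, adjusted p = 0.0966 in limma).

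With 1 added to the signal, the SLAM family held the gene with the largest log2 difference of the panel. Slamf7, a receptor of NK cells, plasma cells and activated macrophages, was at 0, 1.29 and 0 with avelumab and at 80.7, 12.3, 78.4 and 79.8 in the combination. It was thus at or near 0 in the avelumab mice and clear of 0 in each combination mouse, with replicate 2 far below the others. The log2(signal + 1) difference was 5.28 ± 1.17 (SE), and it was 2.60 with 10 in place of 1 added to the signal. H2-Aa was at 2.63 or more in every alternative setting, so with 10 added Slamf7 was no longer the largest. Cd48 and Ly9, further members on lymphocytes and myeloid cells, rose by 2.14 and 1.74. Of the 8 measured members 3 rose (2 under median centring and 1 under quantile normalization), beside the 9.60% of all tested genes that rose. Slamf1 was at 0 in all 7 mice.

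Many lymphocyte genes were dim, and their counts stand beside the 9.60% of all tested genes that rose. Under median centring and quantile normalization 0 T cell and 0 NK cell genes rose. Of 26 T cell genes only Lck, the kinase of the T cell receptor, rose, from 31.6, 22 and 43.9 to 58.3, 53.7, 80.2 and 49.2 (log2 difference 0.90 ± 0.28, SE), and 15 of the 26 had a mean signal under 20. Cd3g was at 1.97, 13.7 and 6.48 and at 25, 22.6, 55.6 and 15.2, without overlap, and had an adjusted p of 0.0609 in limma. Cd3d overlapped (0.31 ± 0.53), and Cd8a and Cd4 stood at 25.7 or lower in every mouse. Of 23 genes in the NK cell list 2 rose, and the cells that carried them were not tested. Klrd1, which encodes CD94, was at 6.90, 8.19 and 22.4 and at 54.0, 46.4, 36.2 and 54.3 (2.01 ± 0.59), and Klra2, a Ly49 family receptor, rose by 1.44 ± 0.38 (SE). Klrb1c was at 0 in 2 of 3 avelumab and 3 of 4 combination mice.

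None of the 8 cytotoxic effector genes passed in limma, and 1 was under an unadjusted p of 0.05. Gzma, a granzyme, had signals of 29.6, 31.6 and 56.1 against 82.2, 23.6, 74.0 and 100. Combination replicate 2 lay below all 3 avelumab mice for this gene. Of 17 B cell genes Cd38, which is also carried by activated T, NK and myeloid cells, was the 1 that rose (1.68 ± 0.43, SE). The B cell list's median of 1.42 came from dim genes, 11 of 17 under a mean of 20, and fell to 0.57 with 10 added to the signal. Ms4a1, which encodes CD20, was at 1.97, 17.8 and 14 with avelumab and at 85.8, 3.97, 163 and 9.21 in the combination, so it was high in replicates 1 and 3 and low in replicates 2 and 4.

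**Figure D3:**
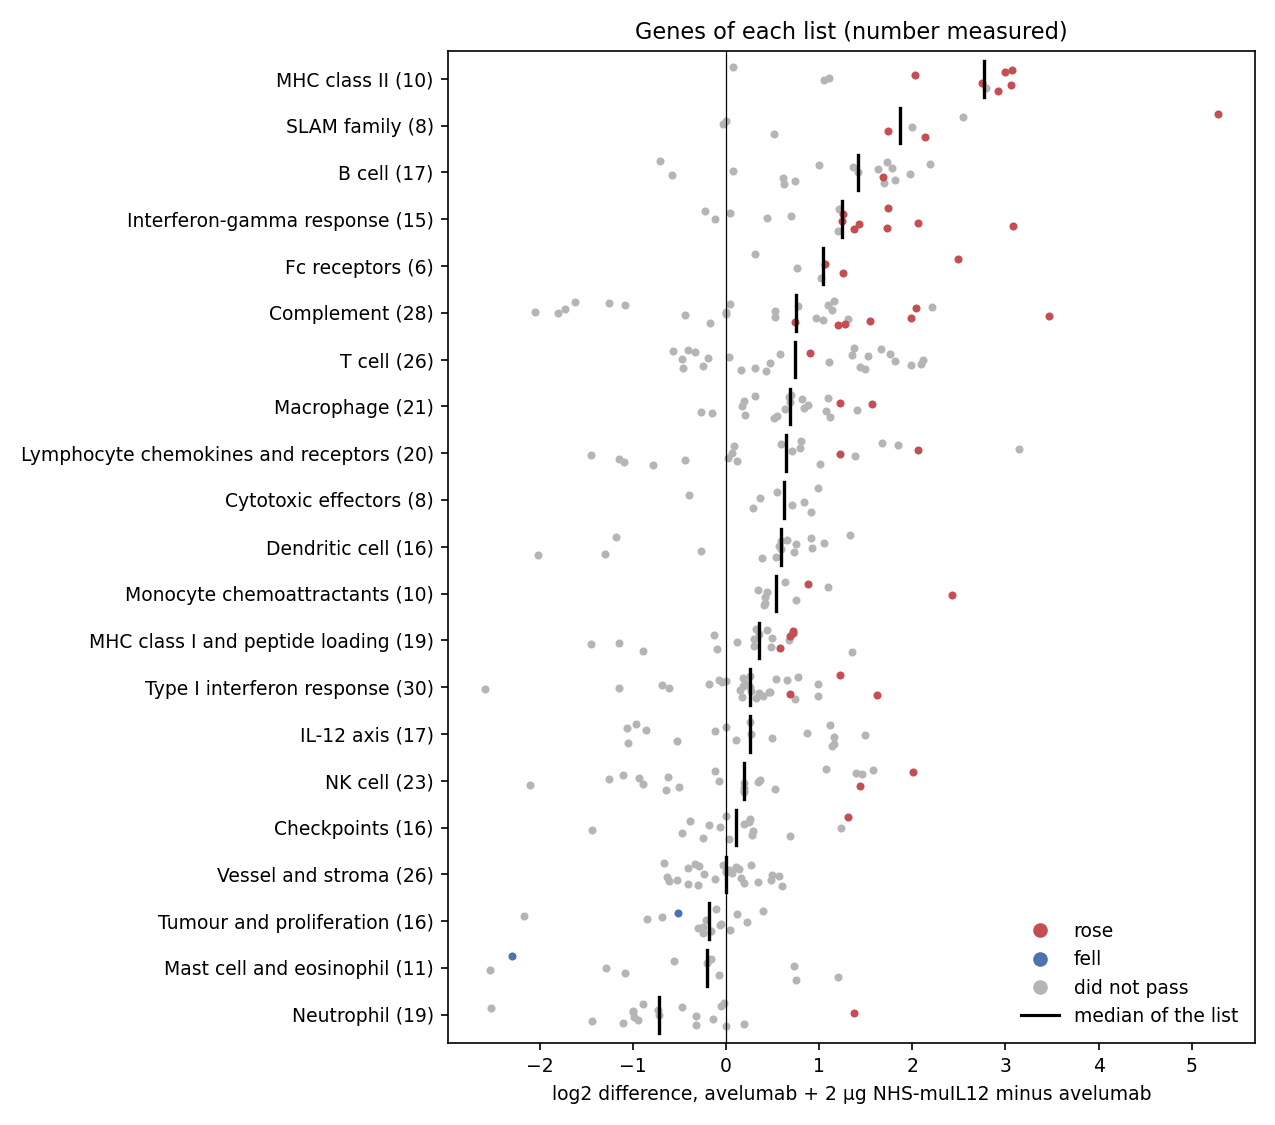
Each row is 1 of 21 gene lists with its number of measured genes, each point a gene at its log2 difference (x axis, combination minus avelumab alone), and the bar the median of the list. Red genes rose and blue genes fell. The class II list lies at a median of 2.77 and the neutrophil list at -0.72.

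The target of avelumab and its partners were not called. Cd274 was at 117, 364 and 188 with avelumab and at 529, 265, 396 and 836 in the combination. Avelumab replicate 3 lay above combination replicate 2, and the log2 difference of 1.21 ± 0.51 (SE) had a 95% interval from 0.14 to 2.28 and an adjusted p of 0.141 in limma. Pdcd1, which encodes PD-1, and Pdcd1lg2, which encodes PD-L2, were dim and overlapped, at 0.20 ± 1.42 and 0.24 ± 1.49 (log2 difference, SE), and both signs turned under the other scalings. Of 16 checkpoint genes Tnfrsf14, a ligand of BTLA, was the 1 that rose (1.31 ± 0.30, SE). This count was not above the 9.60% of all tested genes that rose. Under median centring and under quantile normalization 1 checkpoint gene rose and 1 fell. Lag3 was at 3.94, 23.4 and 8.35 against 22 to 25.8 and did not pass (adjusted p = 0.127 in limma). Pvr, the ligand of TIGIT, was at 284 to 345 and at 232 to 262, without overlap, and did not pass (-0.38 ± 0.15).

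The 9 falls were smaller in number and, for 5 of them, lay in bright genes. Myc, the growth regulator, was at 1449, 1640 and 1233 with avelumab and at 1000, 913, 1097 and 991 in the combination. Each combination mouse was below each avelumab mouse, and the log2 difference was -0.52 ± 0.14 (SE), with an adjusted p of 0.0283 in limma. Fos, a part of the AP-1 transcription factor, was at 431, 519 and 291 and at 238, 159, 222 and 175 (-1.03 ± 0.30). Its partner Jun was at 624, 579 and 369 and at 342, 354, 297 and 324 (-0.64 ± 0.19). For Fos and Jun, avelumab replicate 4 stood nearest to the combination mice.

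Tnfaip3, a brake on NF-kappaB, Itga6, an integrin chain that binds laminin, and F2rl1, a protease-activated receptor, fell by 0.76, 0.61 and 1.02 on the log2 scale. Tpsab1, a mast cell tryptase, was at 15.8, 12.3 and 43.0 with avelumab and at 4.07, 3.97, 1.10 and 5.81 in the combination (-2.30 ± 0.62, SE). Cma1, the mast cell chymase, was at 31.6 to 34.5 with avelumab and at 2.62, 0, 16.9 and 16.9 in the combination and did not pass (adjusted p = 0.135 in limma). Ms4a2, which marks the same cells, was at 0 to 2.86 in all 7 mice. Aire and Elk1, both transcription regulators, fell from means of 6.24 and 12.7 to 0.672 and 3.24 in signal, close to 0 in the combination.

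Of 16 genes of tumour and proliferation Myc was the 1 that fell. The list's median of -0.19 became -0.61 and -0.49 under median centring and quantile normalization, with 3 falls each. Of all 750 tested genes 9 fell (1.20%), and 35 and 33 fell under these scalings. The median of all tested genes moved as well, from 0.10 to -0.33 and -0.13. Msln, a surface protein of carcinomas, was at 2648, 3624 and 3146 and at 1473, 2242, 1857 and 2246 (log2 difference -0.69 ± 0.24, SE, adjusted p = 0.0666 in limma), and Itgb4, the partner chain of Itga6, had a log2 difference of -0.85 ± 0.28 (SE). Epcam and Erbb2 had log2 differences of 0.22 and -0.21 and overlapped. Of 19 neutrophil genes Fpr2, a formyl peptide receptor also of macrophages, rose (1.38 ± 0.41), and the list's median was -0.72. Under median centring 0 neutrophil genes rose and 5 fell, and under quantile normalization 0 rose and 3 fell. Mpo, the granule peroxidase, was at 36.5, 127 and 33.6 and at 5.51, 27.8, 1.10 and 20.3. Its groups were apart, but it did not pass the threshold (adjusted p = 0.0580 in limma). The other defining neutrophil markers, Csf3r and Cxcr2, had log2 differences of 0.19 and -0.33 and overlapped. Among the avelumab mice replicate 3 was the highest for Mpo, Csf3r and Cxcr2, at 127, 88.2 and 71.6. The summed neutrophil list was at 1633 to 4476 with avelumab and 1518 to 1943 in the combination. Of 26 vessel and stroma genes 0 passed in limma and 0 had an unadjusted p under 0.05, with a median of 0.00 that became -0.43 and -0.30 under the other scalings.

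The rises ordered the mice alike. Among the combination mice replicate 4 was the highest for 49 of the 72 rises and replicate 1 for 18, and replicate 2 was the lowest for 51. Among the avelumab mice replicate 4 was the highest for 57, replicate 3 the lowest for 40 and replicate 2 for 29. Genes of 1 tumour are measured in 1 library, so these counts describe the mice and are not independent of each other.

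The same dose of NHS-muIL12 without avelumab was compared with isotype control in other mice, to see which changes also appeared without PD-L1 blockade. There, 0 of 750 genes passed in limma (0%). The lowest adjusted p was 0.0657, and 59 genes were under an unadjusted p of 0.05. Of the 72 genes that rose with avelumab, 70 had a positive log2 difference without it, and in all 72 it was smaller, with a median of 0.53 against 1.38. The genes were picked for passing with avelumab, so a smaller value in the other comparison follows in part from the choice and was given no test. Cx3cl1 and Il15ra were the 2 with a negative value. Over all 750 genes 540 had the same sign, and Pearson's r was 0.66 and Spearman's rho 0.64 across genes, which are not independent replicates.

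Class II genes had a median log2 difference of 1.66 without avelumab against 2.77 with it. Cd74 was at 574, 409, 1244 and 822 with isotype and at 4138, 3714, 1626 and 1808 with 2 µg NHS-muIL12, apart in every mouse (log2 difference 1.89 ± 0.50, SE, adjusted p = 0.324 in limma). Gbp5 was at 139, 89.5, 185 and 123 and at 202, 162, 131 and 134, which overlapped (0.25 ± 0.41). C6 overlapped as well, at 6.70 to 70.9 and 10.3 to 78.5 (0.09 ± 0.92). Of the 9 falls, 3 had a negative log2 difference without avelumab, Fos, Tnfaip3 and Tpsab1, and Myc was at 1051 to 1393 and at 1279 to 1444 (0.12 ± 0.13).

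**Figure D4:**
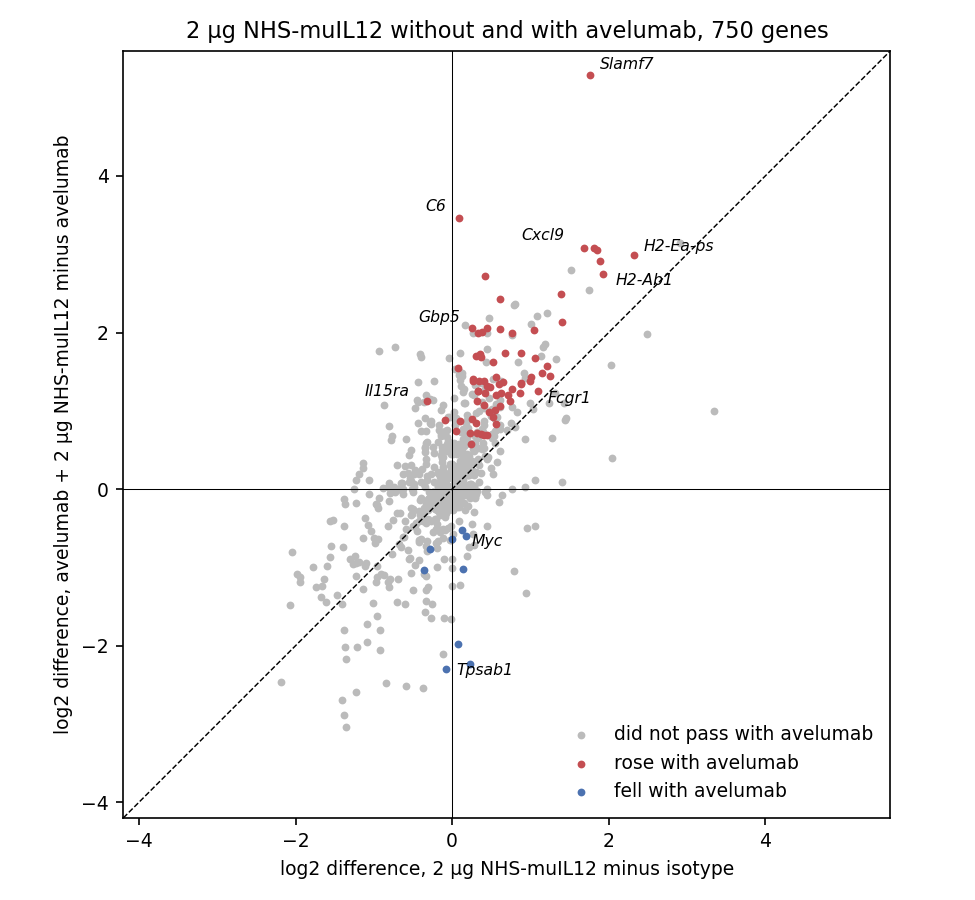
Each point is 1 of 750 genes, placed by its log2 difference for 2 µg NHS-muIL12 against isotype (x axis) and for avelumab plus 2 µg against avelumab (y axis), with equality dashed. All 72 genes that rose with avelumab lie above the dashed line, and Slamf7, at 1.75 on the x axis and 5.28 on the y axis, is the farthest up.

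The difference between these differences was tested as an interaction, and 0 of 750 genes passed in limma (0%). The lowest adjusted p was 0.804, and 37 genes were under an unadjusted p of 0.05, 27 higher and 10 lower. A change that differed with and without avelumab was thus not shown for any single gene. The 3 genes with the smallest p were Itga6, Il15ra and Myc. Itga6 had an interaction of -0.78 ± 0.22 (SE) on the log2 scale and an unadjusted p of 0.00205 in limma. Il15ra, the chain that presents interleukin-15 to lymphocytes, was at 22.7, 12.3 and 25.2 with avelumab, at 48.2, 34.0, 32.7 and 65.3 in the combination, at 27.0 to 36.0 with isotype and at 24.6 to 30.4 with 2 µg alone (1.45 ± 0.42). Myc had an interaction of -0.64 ± 0.19 (SE). For Cd74 it was 1.03 ± 0.74, with a 95% interval from -0.53 to 2.58, and for Gbp5 1.81 ± 0.61, from 0.53 to 3.08 before adjustment. Isotype replicates 1 and 2 and NHS-muIL12 2 µg replicate 3 were among the 4 libraries of the series with the highest dim-end signal, and without these 4 the interaction count was again 0.

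Values in the 10 µg groups are given beside these without a test. Cd74 had a mean of 8614 ± 1386 (SD, n = 3) with 10 µg alone and 7913 ± 6513 (SD, n = 4) with avelumab plus 10 µg, against 5822 ± 2558 (SD, n = 4) in the 2 µg combination. Cd274 had means of 763 and 850 in the 10 µg groups against 507 in the 2 µg combination, and 194 with isotype. C6 was at 58.8, 70.9, 6.70 and 14.8 in isotype replicates 1 to 4, of which the first pair are the libraries of high dim-end signal. Isotype replicates 3 and 4 lay within the range of the avelumab mice for C6. Il15ra had a mean of 20.1 with avelumab alone and 33.4 with isotype, and these differences between avelumab and isotype were not tested. Tpsab1 had a mean of 34.5 with isotype, 34.9 with 2 µg alone and 23.7 with avelumab, and 3.74 and 7.36 in the combinations with 2 µg and 10 µg.

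**Figure D5:**
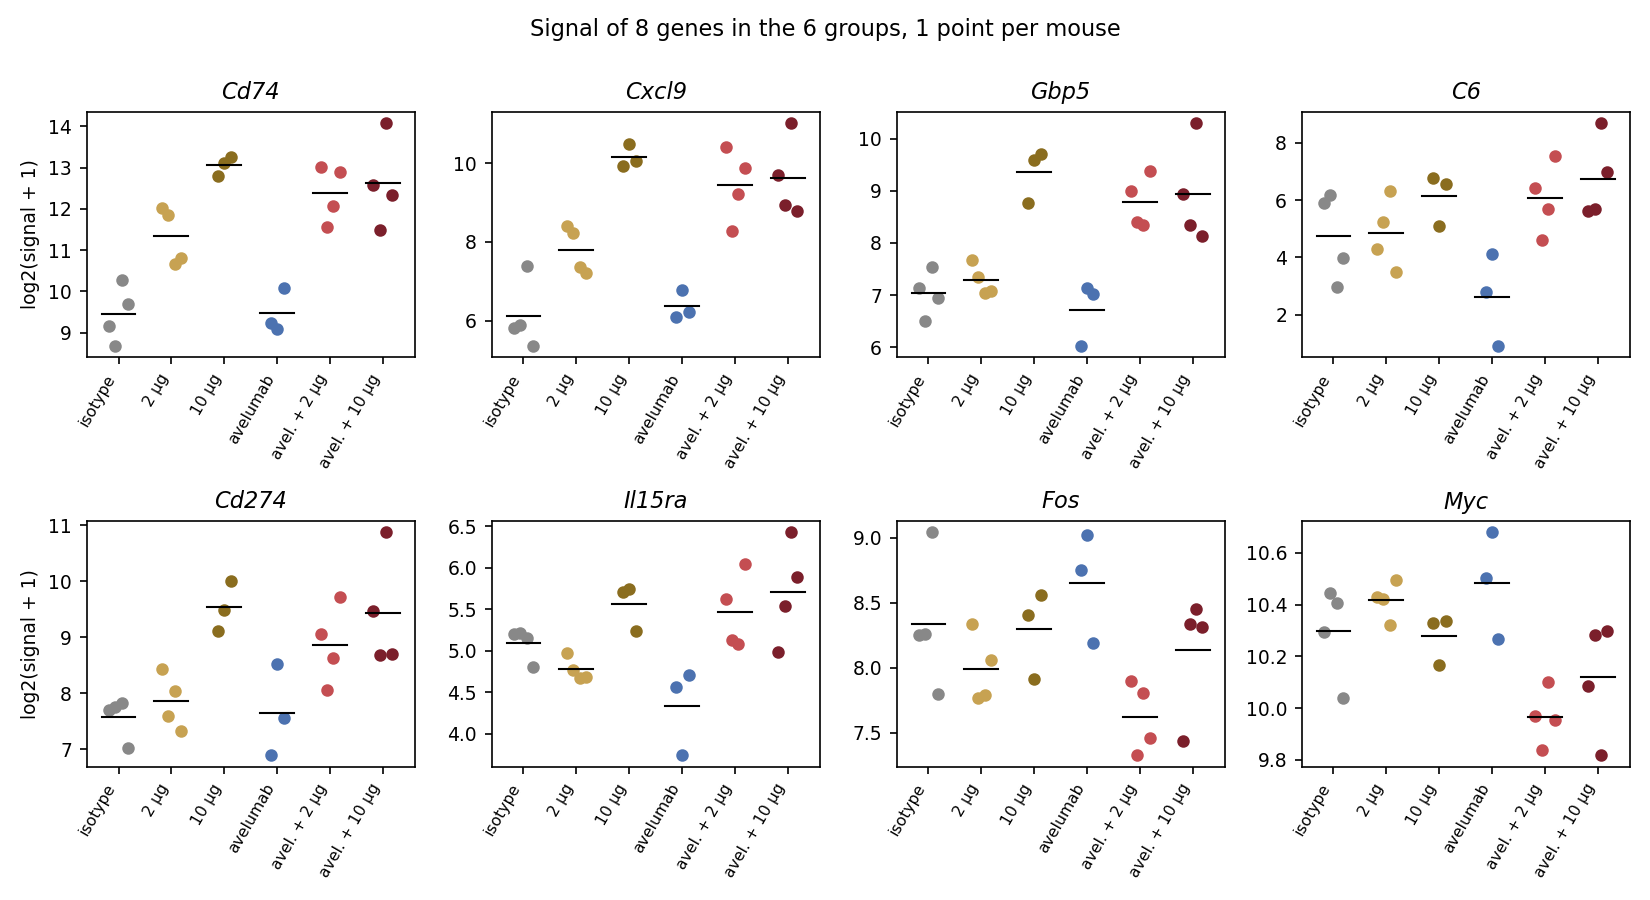
Each panel shows 1 gene as log2(signal + 1) (y axis) in the 6 groups (x axis, doses of NHS-muIL12 without and with avelumab), with 1 point per mouse and a line at the group mean. For Cd74 and Cxcl9 the 2 µg combination lies between 2 µg alone and 10 µg alone, and for C6 and Il15ra the avelumab group has the lowest mean.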

How the data were processed

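Per the labels' protocols, total RNA was read with the standard NanoString protocol. The authors deposited linear signal, and no source used here gives the software, background method or scaling. In each library values above 0 lay within 0.02 of an equally spaced step of 0.723 to 1.38 signal units in the 7 mice, and such a step was read as 1 probe count after background subtraction and scaling. These are not raw counts, so no count model was fitted. Of 770 genes, 754 matched current mouse symbols, 8 older synonyms and 8 neither.

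Analysis used log2(signal + 1), R 4.3.3 and limma 3.58.1 (lmFit, contrasts.fit, eBayes), with 1 mean for each of 6 groups over 22 mice and 16 residual degrees of freedom. Two-sided tests were used, with Benjamini-Hochberg adjustment over 750 genes (20 housekeeping genes left out) and a threshold of 0.05. Folds are back-transformed log2 differences and understate changes of dim genes. Low values were not filtered. Precision was read from the spread between mice.

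Named genes were the 15 rises and up to 15 falls with the largest change among those that passed, members of the class II, interferon-gamma and interleukin-12 lists with a mean of 20 or more, the 3 smallest p of every other list, Cd274, Pdcd1 and Pdcd1lg2, and the 3 smallest interaction p. Other genes are named as members of a count or as list markers. The members, the 21 lists and this rule were chosen with earlier results of these data known. The fit was tested on simulated data. Alternatives were the pseudocount, a mean filter, median centring, quantile normalization, the compared groups alone, array weights, an intensity trend, a replicate block, omission of the 4 libraries with the highest lower quartile, and each mouse left out. Some genes counted among those that passed are not reported by name here.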

Additional observations from a re-analysis of the deposited data

Results flagged for a closer look

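In the combination group of 4 mice, 3 of 99 values tested (95 named genes and 4 library measures) had 1 mouse far from the other mice by Dixon's 95% critical value, where chance flags about 1 in 20. Slamf7 was at 12.3 in replicate 2 against 78.4 to 80.7 in the other mice. Ncr1, the NK cell receptor NKp46, stood at 38.8 in replicate 1 against 16.4 to 17.8. Ifih1 was at 456 in replicate 4 against 296 to 322.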

How the results depend on the processing

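The count of 81 genes moved to 0 with the compared groups only (lowest adjusted p 0.0717 in limma, 198 genes under an unadjusted p of 0.05), to 217 with array weights (185 higher, 32 lower) and to 47 without the 4 libraries of high dim-end signal. With 1 mouse left out it ranged from 0 to 95. It was 75 with 10 added to the signal, 104 with a mean signal of at least 20, 59 with median centring (33 shared with the 81), 72 with quantile normalization (42 shared) and 91 with an intensity trend. The causes of these changes in count were not tested. Fits with fewer mice have fewer degrees of freedom, and without avelumab replicate 4 or without combination replicate 2 the counts were 95 and 85. The replicate block gave 56 (53 higher, 3 lower, 54 shared). Same-numbered mice did not deviate together, with correlations across genes of 0.00, 0.19 and -0.11, so the numbers were not taken as pairs. The interaction count was 0 in every setting. The count for 2 µg NHS-muIL12 against isotype went from 0 to 90 with array weights and to 1, Pou2f2, a transcription factor of B cells, with 10 added, with the mean filter, and without isotype replicate 2 or isotype replicate 4, so that leaving out single mice gave 0 to 1. Signs that turned were all of genes that did not pass. With 10 added Pdcd1 was at -0.16. With median centring and with quantile normalization H2-Ob was at -0.35 and -0.42, Il18 at -0.15 and -0.12, Jak1 at -0.38 and -0.22, Pdcd1 at -0.23 and -0.29, Pdcd1lg2 at -0.18 and -0.0167, Tyk2 at -0.17 and -0.20, and Vcam1 at -0.15 and -0.0586. With 1 mouse left out values ran from -0.27 to 0.63 for H2-Ob, -1.08 to 1.26 for Pdcd1, -0.19 to 0.98 for Pdcd1lg2 and -0.0321 to 0.14 for Jak1. Signal near background and 3 against 4 mice limit what dim genes can show.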

Other observations

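Of the 81 genes that passed, 33 were in no list, and the following were chosen after their values were seen and were not tested as groups. They include Selplg, the ligand of the selectins (log2 difference 1.20 ± 0.26, SE), the integrin chains Itgb2 (1.12 ± 0.26), Itgal (1.35 ± 0.34) and Itga4 (1.67 ± 0.40), Amica1 (1.31 ± 0.33) and Spn, which encodes CD43 (0.99 ± 0.27). Ptprc, the pan-leukocyte antigen CD45, rose by 1.13 ± 0.35 (SE), from a mean of 183 to 400. In each of these but Ptprc all 4 combination mice lay above all 3 avelumab mice.

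Cd180 (1.35 ± 0.30, SE), its partner Ly86 and the transcription factor Irf5 (1.01 ± 0.24) also rose, as did Ctss, a lysosomal protease that trims the invariant chain (1.38 ± 0.40, mean signal 955 against 2228), and Ctsh, another such protease (1.07 ± 0.33). Il21r, a cytokine receptor of lymphocytes, rose from a mean of 24.9 to 84.8 (1.70 ± 0.37), and the interferon-induced GTPase gene Irgm2 from 101 to 265 (1.38 ± 0.41).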
